A study of Mus musculus with 60 samples.

Results

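Genomic imprinting is the expression of a gene from the copy of 1 parent only. It rests on methylated control regions that are set in the germ line and kept in the embryo by DNA methyltransferase Dnmt1, the zinc finger protein Zfp57 and the corepressor Trim28, and at some genes on H3K27me3 of the maternal copy. Mouse embryonic stem cells (ESCs) express several imprinted genes, and female ESCs in 2i medium are known for losing DNA methylation. The genes described here are 38 imprinted genes that lie outside chromosome 12, taken from general knowledge of mouse imprinting, 22 expressed from the paternal and 16 from the maternal copy. Of these, 28 are imprinted in most tissues and 10 in some tissues only. The files list 35 of them in at least 1 of 60 libraries, among 14383 genes in all.

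The libraries come from F1 2-1 female ESCs, which carry 1 set of chromosomes of 129/Sv and 1 of Cast/Ei, and reads that cover a known difference between the strains were counted per allele. Every clone carries an Xist transgene under a doxycycline-inducible promoter and the M2rtTA activator at ROSA26, targeted to the 129 chromosome 6, and each clone is a single line. Clones 87 and 68 are 40,XX, with the inducible promoter placed at the Cast copy of Xist itself. Clones 85, 86, 109, 190, 203b, 267 and 339 carry an X;8 translocation, with the transgene on the Cast X in the first 4 and on the 129 translocation product in the last 3. Clones 55, 160, 228 and 273 are trisomic for chromosome 12, where the transgene lies (the deposited label of clone 160 gives the X instead, and the study's list of clones was followed). Clones 160 and 267 also carry a Tsix-Stop allele. ESCs were kept in 2i medium with LIF and were untreated (24 libraries, 12 clones) or given 2 µg/ml doxycycline for 5 days (24 libraries, 13 clones), and 4 libraries are from day 14 neurons of clone 55, 1 untreated and 1 treated from each of the sub-clones labelled 20 and 38. The described genes lie on chromosomes 1, 2, 6, 7, 10, 11, 15, 17 and 18, none of which carries an Xist transgene or takes part in the translocation, while chromosome 6 carries M2rtTA.

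The level of each allele is given here as the Cast ratio, the share of Cast reads among all allele-specific reads of a gene. A gene was called monoallelic at a ratio of 0.9 or above or 0.1 or below, skewed from 0.7 to 0.9 or 0.1 to 0.3, and biallelic in between. Only 1 direction of the cross was sequenced, and the sources used here do not say which strain was the mother, so that a strain effect and a parental effect cannot be told apart in a skewed gene. In bulk RNA, a ratio near 0.5 does not separate cells that use both alleles from a mixture of cells that use one or the other, and fewer expressing cells cannot be told apart from less RNA per cell. Allele-specific reads numbered 731374 to 5830149 in an ESC library and 7068712 to 10698003 in a neuron library. Other genes on the same chromosomes centred on both alleles, with median ratios per library between 0.459 and 0.515 over libraries. A gene with too few reads is missing from a library and is not given as 0.

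In untreated ESCs most imprinted genes were read from both alleles. With the reads of all untreated libraries pooled, 23 of 26 genes with a value were biallelic, 3 were skewed and none was monoallelic. The biallelic share, 88.5%, stood beside 87.6% of 10227 autosomal genes, and with at least 30 reads the shares were 88.0% and 90.4%. By clone, 257 pairs of a gene and a clone had a value. Of these, 208 were biallelic, 48 were skewed and 1 was monoallelic. The biallelic share of a clone ran from 68.4% to 85.7% over 19 to 26 imprinted genes, beside 85.4% to 88.6% of autosomal genes, and was below the autosomal share of the same clone in 12 of 12 clones, a difference that was not tested. With at least 30 reads for the imprinted genes the shares ran from 70.6% to 85.7%. In 244 pairs the 95% Wilson interval of the ratio left out both monoallelic ranges. Intervals cover counting error only. Of the skewed pairs, 33 belong to the 3 genes Plagl1, Kcnq1ot1 and Trappc9, and only 5 of the other 15 rest on at least 30 reads. These 3 genes recur from clone to clone, so the 12 clones are not independent in the comparison with autosomal genes.

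**Figure D1:**
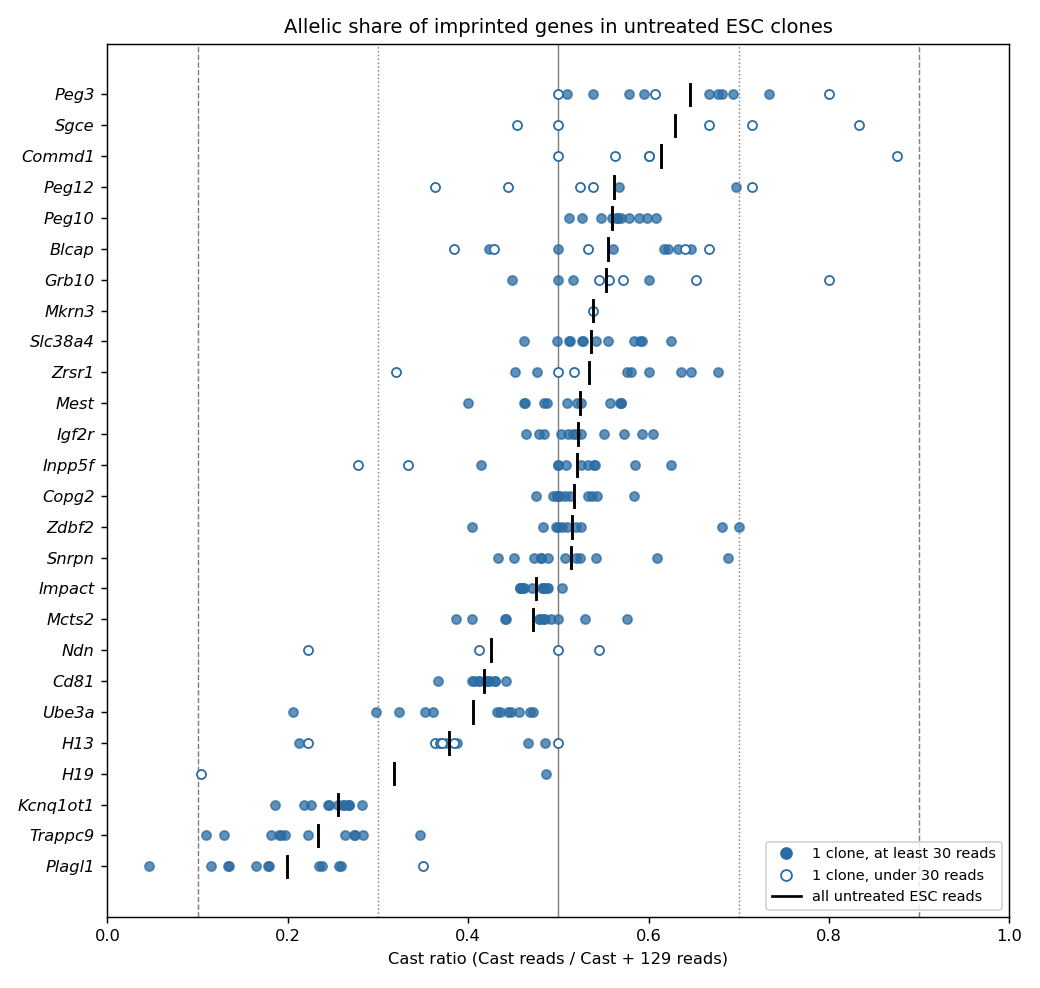
Cast ratio (x axis, from 0 to 1) of the 26 imprinted genes listed in untreated ESCs, 1 point per clone with the reads of its libraries pooled, and a bar for all untreated reads. Dotted lines mark 0.3 and 0.7, dashed lines 0.1 and 0.9. Most genes scatter around 0.5, and Plagl1, Trappc9 and Kcnq1ot1 lie at 0.199, 0.234 and 0.255.

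Several paternally expressed genes were biallelic in ESCs, whereas Plagl1 and Kcnq1ot1, described further on, were skewed. Impact, an inhibitor of Gcn2 signalling, held ratios between 0.425 and 0.526 (median 0.474) in 24 untreated libraries with 221 to 1774 reads each. Peg10, a gene derived from a retrotransposon, held 0.473 to 0.623 (median 0.562). Mest, which encodes an alpha/beta hydrolase fold protein, held 0.318 to 0.622 (median 0.521) with as few as 10 reads in a library. All 3 genes were biallelic in 12 of 12 clones. Mcts2, a retrogene inside H13, was biallelic in 12 of 12 clones (median 0.475), and Zrsr1, a retrogene inside Commd1, in 11 of 11 (median 0.558). Both retrogenes have an X-linked parent gene (Mcts1 and Zrsr2) and an overlapping host, and reads may be shared between them. Zdbf2, a zinc finger gene, was biallelic in 9 of 10 clones (median 0.5), and the one skewed clone, 190, had 30 reads and a ratio of 0.7 (95% interval 0.521 to 0.833).

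Peg3, a zinc finger gene, leaned to Cast. Its ratio ran from 0.412 to 0.8 (median 0.624) in 20 untreated libraries, and the pooled ratio of 0.646 lay at percentile 88.1 of autosomal genes. It was skewed in clones 109 (0.8 from 10 reads) and 273. Clone 273 had the best measured skew, with 0.748 and 0.711 in its untreated libraries and 0.734 pooled (203 reads, 95% interval 0.669 to 0.79). In its treated libraries the ratio was 0.667 and 0.513, so that the skew was not seen in all libraries of the clone. Peg3 was not listed in every library, and its difference between clones missed the threshold in the limma fit that allows missing libraries (adjusted p = 0.555).

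Snrpn, which encodes a spliceosomal protein, leaned to Cast in 2 clones, which are named here for these values. In 20 untreated libraries of the other 10 clones the ratio lay between 0.415 and 0.612 (median 0.496). Clone 273 gave 0.654 and 0.725, above all of them, and clone 55 gave 0.594 and 0.618, at their upper end with overlap. The treated libraries gave 0.7 and 0.709 in clone 273 and 0.651 and 0.743 in clone 55, against 0.29 to 0.57 in 20 treated libraries of the other 11 clones, with no overlap. The 4 neuron libraries of clone 55 stayed at 0.58 to 0.633. The median ratio of the other genes of chromosome 7 was 0.502 in clone 273 and 0.5 in clone 55. Within 5 Mb, D7Ertd715e had ratios of 0.671 and 0.598 in these clones against 0.437 to 0.478 in the others, and Mphosph10 had 0.656 (773 reads) in clone 273 against 0.558 to 0.634 in the others, with 0.526 in clone 55. Ube3a had 0.472 (125 reads) in clone 273 against 0.206 to 0.469 in the others, with 0.361 (36 reads) in clone 55, within that range. Cyfip1 had 0.508 and 0.51 against 0.446 to 0.543 and Herc2 0.509 and 0.515 against 0.426 to 0.554. These neighbours were chosen after their values were seen. The deposited allele reads of Snurf are the same as those of Snrpn in clones 273 and 55 (202 and 187), since the genes share a transcript. The gene reads counted on Snrpn were close to 0 and give no level. The exon given for Snrpn differs between libraries, with the same exon in 52 of them, and its part was not tested.

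Among maternally expressed genes, Igf2r, the receptor that clears Igf2, was biallelic in 12 of 12 clones, with a median of 0.537 in 24 libraries. Mouse Igf2r is known to use both alleles in undifferentiated ESCs, and its antisense RNA Airn was not listed in any ESC library. One untreated library of clone 55 gave 0.9 for Igf2r from 10 reads, and the other gave 0.561 from 98. Grb10, a growth-inhibiting adaptor, was biallelic in 8 of 9 clones (median 0.539), the exception being clone 85 with 15 reads. H19, an RNA that gives rise to a microRNA, was listed in 3 untreated libraries only. It was at 0.103 in a library of clone 87 (29 reads, 95% interval 0.0358 to 0.264) and at 0.487 in clone 228 (37 reads). The treated libraries of clone 87 pooled to 0.408 (71 reads).

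Genes that are imprinted in some tissues or transcripts only were also mostly biallelic. Copg2, a coatomer subunit that overlaps Mest, had a median of 0.514, and Cd81, a tetraspanin, had a median of 0.416 with a narrow range of clones (0.367 to 0.442). Ube3a, the ubiquitin ligase imprinted in neurons, had a median of 0.4 and was skewed in clones 190 (0.206, 63 reads) and 109 (0.297, 37 reads). Blcap, the host of Nnat, was biallelic in 12 of 12 clones and Inpp5f, an inositol phosphatase, in 11 of 12, with 0.278 from 18 reads in clone 228. H13, a signal peptide peptidase, was biallelic in 9 of 11, with 0.212 from 33 reads in clone 109 and 0.222 from 9 in clone 55. The 5 genes Sgce, Commd1, Ndn, Peg12 and Mkrn3 were listed in 1 to 10 untreated libraries with at most 33 reads in a library, and the skewed pairs among them (Sgce in clones 228 and 85, Commd1 in 273, Ndn in 339 and Peg12 in 86) rest on 8 to 14 reads. Phlda2, a placental growth inhibitor, was listed in 2 treated ESC libraries, with a pooled ratio of 0.222, and in none of the untreated ones. Igf2, Airn, Usp29, Magel2, Cdkn1c, Ascl2 and Nap1l5 were listed in neurons and not in assigned ESC libraries, Zim1 only in 1 library without a group, and Nnat, Gnas and Slc22a18 in none.

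The 3 skewed genes leaned to 129 in every clone. Plagl1 encodes a zinc finger transcription factor at chr10:13090832-13131694, and its counts are given with the coordinates of 1 exon, chr10:13127142-13131695 (GRCm38). Per the study's methods, allele reads are summed over all exonic polymorphisms of a gene. The ratio of Plagl1 lay between 0.0296 and 0.35 (median 0.178) in 22 untreated libraries. Clone 55 was the most one-sided, with 0.0621 and 0.0296 untreated and 0.0364 and 0.0615 treated, and its pooled untreated ratio of 0.0464 (280 reads, 95% interval 0.0273 to 0.0778) is the only monoallelic value of an untreated clone. With doxycycline, pooled values in the monoallelic range were those of Plagl1 in clones 55 (0.05, 120 reads) and 273 (0.0851, 47 reads), of Trappc9 in clone 203b (0.0475, 316 reads of 1 library) and of Phlda2 in clone 109 (0.1, 10 reads). Other clones ranged from 0.0809 to 0.35 in 20 untreated libraries and did not overlap with clone 55 untreated. In clone 273, a treated library had 0 Cast reads of 10, which allows a ratio of up to 0.3, and the other had 0.108.

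Kcnq1ot1, the long noncoding RNA antisense to Kcnq1, lies at chr7:143213111-143296547 and was skewed in 12 of 12 clones. Untreated libraries ranged from 0.157 to 0.325 (median 0.247), and clones from 0.186 to 0.282. The lowest library was a treated one of clone 87, at 0.0783 from 396 reads, and the other treated library of that clone gave 0.199. Pooled over untreated ESCs, the ratio of 0.255 lay at percentile 4.05 of autosomal genes and that of Plagl1 at 2.67, and 12.4% of autosomal genes were skewed or monoallelic. Trappc9, a vesicle trafficking subunit with maternal bias in brain, was skewed in 11 of 12 clones and ranged from 0.0707 to 0.381 (median 0.204). The exon given for Trappc9, a gene at chr15:72589620-73061238, differs between libraries. The 14 ESC libraries that give the exon at the lowest coordinate had ratios of 0.0475 to 0.22 (median 0.18), and the other 34 had 0.0959 to 0.429 (median 0.269). Differences of Trappc9 between clones and this choice of exon cannot be told apart. The exon given also differs between libraries for other genes, among them Igf2r (7 exons), H13 (4), Grb10 (3) and Snrpn (3). Its part in their ratios was not tested.

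**Figure D2:**
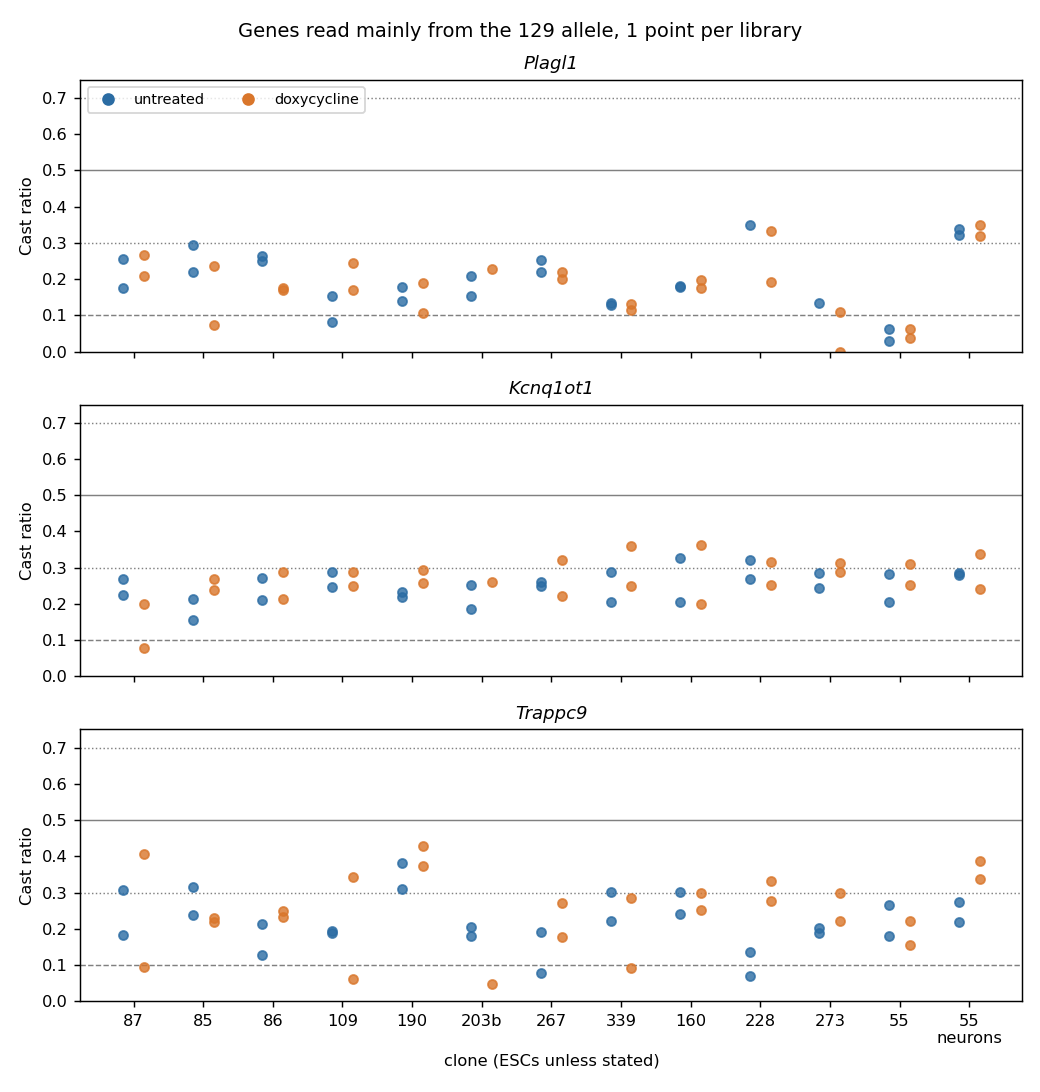
Cast ratio of Plagl1, Kcnq1ot1 and Trappc9 (y axes) in each library by clone, untreated in blue and doxycycline in orange, with the neurons of clone 55 at the right. The solid line is 0.5. ESC points lie below 0.5 in all 3 panels, Plagl1 is lowest in the ESCs of clone 55, apart from 1 library of clone 273 with 10 reads, and lies at 0.32 to 0.348 in the neurons.

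Promoter windows of RefSeq (GRCm38.p6, from 250 bases before to 50 after the start) were found for 32 of the 38 genes. The letters TGCCGC, the core of the motif bound by Zfp57, were searched on both strands (GCGGCA on the other). A gene with several starts has several windows, and overlapping windows, such as 2 of the 3 of Mest, were counted separately. The letters were present in 13 of 48 windows (27.1%) and in 11.6% of windows of all genes, and the median number of CpG dinucleotides was 16.5 against 7.0. These are descriptions of sequence, and no binding was measured. Windows are shown for Plagl1 and Kcnq1ot1, 2 of the 3 skewed genes, for the biallelic gene Mest and for Slc38a4, the gene that changed with doxycycline. They are written 5′ to 3′ on the strand of the gene, with the matches in capitals. The Plagl1 window (chr10:13090582-13090881, plus strand) holds 26 CpG and 1 match, that of Mest (chr6:30737800-30738099, plus strand) 17 and 2 (another of its windows, chr6:30733256-30733555, holds 8 and 0), that of Kcnq1ot1 (chr7:143296498-143296797, minus strand) 9 and 0, and that of Slc38a4 (chr15:97055907-97056206, minus strand) 5 and 0.
Plagl1: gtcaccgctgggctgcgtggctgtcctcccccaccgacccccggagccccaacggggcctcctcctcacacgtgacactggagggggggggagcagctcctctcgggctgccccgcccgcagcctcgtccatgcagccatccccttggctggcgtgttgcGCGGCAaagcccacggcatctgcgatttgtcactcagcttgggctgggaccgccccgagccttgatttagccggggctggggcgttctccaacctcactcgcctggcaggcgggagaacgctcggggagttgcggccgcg
Mest: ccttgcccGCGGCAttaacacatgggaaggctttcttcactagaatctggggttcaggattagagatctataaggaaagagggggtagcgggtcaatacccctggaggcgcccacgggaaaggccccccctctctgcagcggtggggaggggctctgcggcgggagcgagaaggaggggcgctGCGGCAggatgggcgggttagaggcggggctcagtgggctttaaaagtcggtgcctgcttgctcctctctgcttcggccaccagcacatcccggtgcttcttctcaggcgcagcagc
Kcnq1ot1: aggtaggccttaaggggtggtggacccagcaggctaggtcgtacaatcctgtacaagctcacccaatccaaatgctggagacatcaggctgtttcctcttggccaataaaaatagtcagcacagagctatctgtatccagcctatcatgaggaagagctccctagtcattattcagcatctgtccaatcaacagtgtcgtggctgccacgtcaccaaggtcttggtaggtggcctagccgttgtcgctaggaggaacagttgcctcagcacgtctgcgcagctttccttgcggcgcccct
Slc38a4: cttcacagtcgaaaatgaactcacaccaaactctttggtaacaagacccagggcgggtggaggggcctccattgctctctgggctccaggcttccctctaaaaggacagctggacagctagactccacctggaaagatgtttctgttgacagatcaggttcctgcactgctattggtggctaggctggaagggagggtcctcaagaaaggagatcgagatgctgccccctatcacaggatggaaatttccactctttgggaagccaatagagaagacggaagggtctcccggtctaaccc

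Clones were compared with edgeR's quasi-likelihood test on Cast and 129 reads of 5012 genes listed in all 24 untreated libraries. The ratio differed between clones in 720 genes (14.4%) and in 3 of the 12 imprinted genes tested, Slc38a4 (adjusted p = 6.87e-07), Trappc9 (adjusted p = 0.0111) and Snrpn (adjusted p = 0.0227), all with Benjamini-Hochberg adjustment over the tested genes. The call of Snrpn was lost without clone 273 (adjusted p = 0.456) or clone 55 (0.0508) and without either library of clone 273 or replicate 2 of clone 55 (0.0501 to 0.216). That of Trappc9 was lost without clone 228 (0.123) or 190 (0.0532), without replicate 1 of clone 228 (0.0584) and with DESeq2 (0.0755). With limma on log ratios, which allows missing libraries, 600 of 9019 genes (6.65%) and 2 of 23 imprinted genes were called, Slc38a4 (adjusted p = 6.39e-05) and Plagl1 (3.05e-04), while Snrpn (0.0812) and Trappc9 (0.0679) were not.

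Doxycycline, which switches on the transgene, changed the allelic ratio of 1 imprinted gene. The treatment by allele term of edgeR was fitted over 47 ESC libraries of 12 clones, with a term for each clone, and called 103 of 4759 genes (2.16%, 0.946% higher and 1.22% lower) and 1 of 11 imprinted genes. The limma fit with missing libraries called 31 of 8945 genes (0.347%, 0.224% higher and 0.123% lower) and 1 of 22 imprinted genes. The called gene was Slc38a4 in both. On the log2 scale of the Cast to 129 ratio, changes of the 11 genes ran from -0.17 to 0.39 in the first fit, and 6 were above 0. The median over the 22 genes of the second fit was -0.09, beside -0.01 over all genes tested.

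Several biallelic genes were measured well enough to bound a change. The log2 change of the Cast to 129 ratio in the limma fit was 0.02 for Impact (95% interval -0.06 to 0.10), -0.01 for Cd81 (-0.13 to 0.10) and -0.08 for Copg2 (-0.20 to 0.03). The skewed genes stayed on the 129 side, with changes of 0.10 for Kcnq1ot1 (-0.15 to 0.35), 0.07 for Trappc9 (-0.39 to 0.54) and -0.16 for Plagl1 (-0.49 to 0.17). The exon of Trappc9 at the lowest coordinate was given in 10 untreated and 4 treated ESC libraries. Treatment and exon are thus partly mixed in the change of Trappc9. H13 (0.95, adjusted p = 0.0621), Grb10 (-0.99, 0.13) and Inpp5f (0.52, 0.16) had a p under 0.05 before adjustment and did not pass it. The pooled ratio of H13 was higher with doxycycline in 9 of 10 clones with both treatments, and that of Inpp5f in 10 of 12. These rest on at most 27 and 96 reads in an untreated library. The exon given for H13 and for Grb10 differs between libraries, and its part in their changes was not tested. Grb10 had a mean of 0.464 ± 0.122 in treated libraries of the fit and 0.558 ± 0.101 in untreated ones (SD, n = 14 each), and the treated mean was lower in all 5 clones with both, on 37 reads at most in an untreated library.

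**Figure D3:**
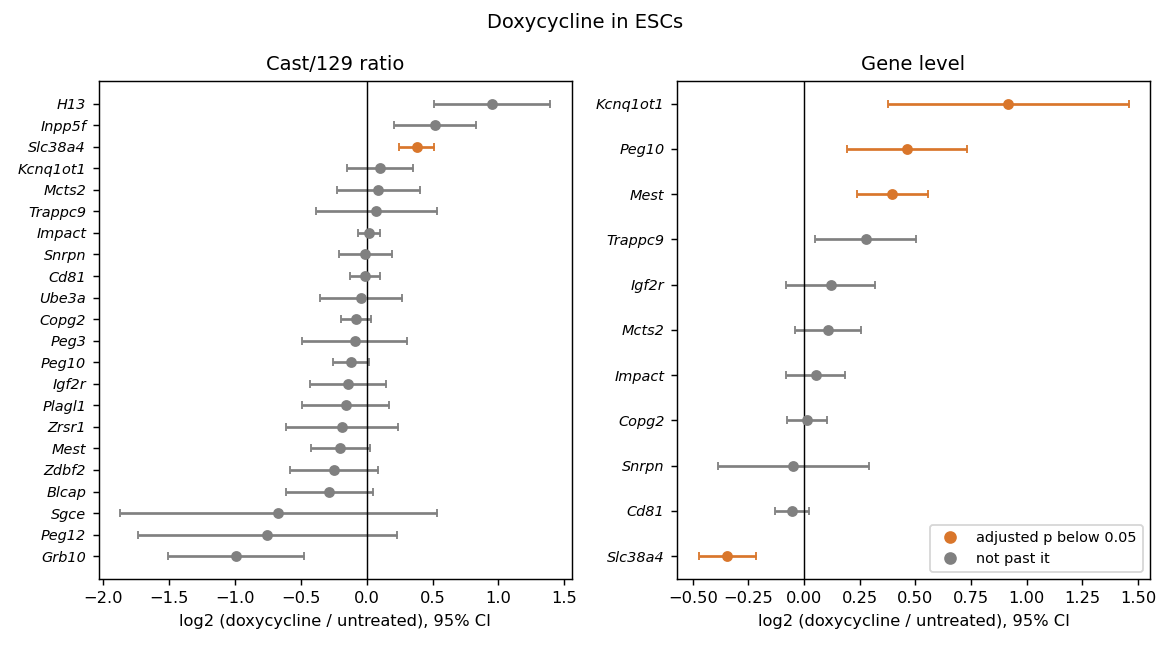
Left, log2 change with doxycycline of the Cast to 129 ratio in ESCs for 22 imprinted genes (limma, missing libraries allowed). Right, log2 change of the gene level for 11 genes (edgeR). Bars are 95% intervals, and orange marks an adjusted p below 0.05, which Slc38a4 reaches in both panels, upwards on the left and downwards on the right.

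Slc38a4 encodes an amino acid transporter at chr15:96994816-97055956 and is one of the genes whose imprint is known to depend on H3K27me3 of the maternal copy in early embryos. Its counts are given with the coordinates of the exon at chr15:97008863-97009138 in all 60 libraries. Untreated libraries ranged from 0.452 to 0.647 (median 0.540) with 546 to 2485 reads each. Treated libraries ranged from 0.514 to 0.692, with a mean of 0.608 ± 0.0473 (SD, n = 23). The change was 0.39 ± 0.06 (SE) on the log2 scale (edgeR, adjusted p = 1.57e-05). It held without any one clone (0.33 to 0.43, called in 12 of 12 fits) and without replicate 1 (0.43, adjusted p = 0.0282), and the call was lost without replicate 2 (3 in clone 273) (0.34, adjusted p = 0.0749). In limma the change was 0.38 ± 0.07 (adjusted p = 0.00417), and the call was lost without replicate 1 (0.42, adjusted p = 0.441) and without replicate 2 (0.33, adjusted p = 0.570), in fits that hold fewer libraries.

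The change in Slc38a4 differed between clones (edgeR, clone by treatment by allele, adjusted p = 6.17e-04, a term that called 101 genes, 2.12%). Clone 85 had the lowest untreated ratio, 0.462 ± 0.0148 (SD, n = 2), and stood at 0.627 with doxycycline (SD 0.0168). Clone 190 went from 0.526 ± 0.0108 to 0.672 ± 0.0021, and clone 86 from 0.512 ± 0.0120 to 0.647 ± 0.0202. In all 7 clones with the X;8 translocation, the treated libraries lay above the untreated ones, by 0.0427 to 0.165. Clone 203b had 1 treated library, at 0.617, against 0.543 ± 0.0075 untreated. In the clones trisomic for chromosome 12 the differences were smaller, from -0.0061 in clone 55 to 0.0381 in clone 160, and treated and untreated libraries overlapped in 3 of these 4 clones. The mean of clone 87 was higher by 0.0298, without overlap. The difference between sets of clones was not tested by itself.

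The level of Slc38a4 was also lower with doxycycline. The 129 reads, scaled to a library's total of allele reads (allele CPM), were lower in 11 of 12 clones, from 0.384 times the untreated level in clone 190 to 0.999 times in clone 228, and were 1.06 times the untreated level in clone 55. Cast reads were lower in 9 of 12 clones, at 0.697 times in clone 203b at the lowest. No test was run on single clones. In clone 85 the 129 allele went from 672 to 275 allele CPM and the Cast allele from 576 to 461. Both alleles were thus lower in that clone, the 129 allele more so. Among untreated clones, those with a higher level of Slc38a4 had a lower Cast ratio (Pearson r = -0.909, permutation p = 7e-05, Spearman rho = -0.783, p = 0.00387, n = 12, adjusted p over 2 relations 1.4e-04 and 0.00774), and r was -0.807 without the 2 clones farthest from the median level. Within the 7 clones with the translocation, r was -0.933 (exact permutation p = 0.0314) and rho -0.464 (p = 0.302, adjusted 0.0314 and 0.302), and without the 2 farthest clones r was 0.261, so that there the relation rests on those clones. The level and the ratio share the 129 reads.

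**Figure D4:**
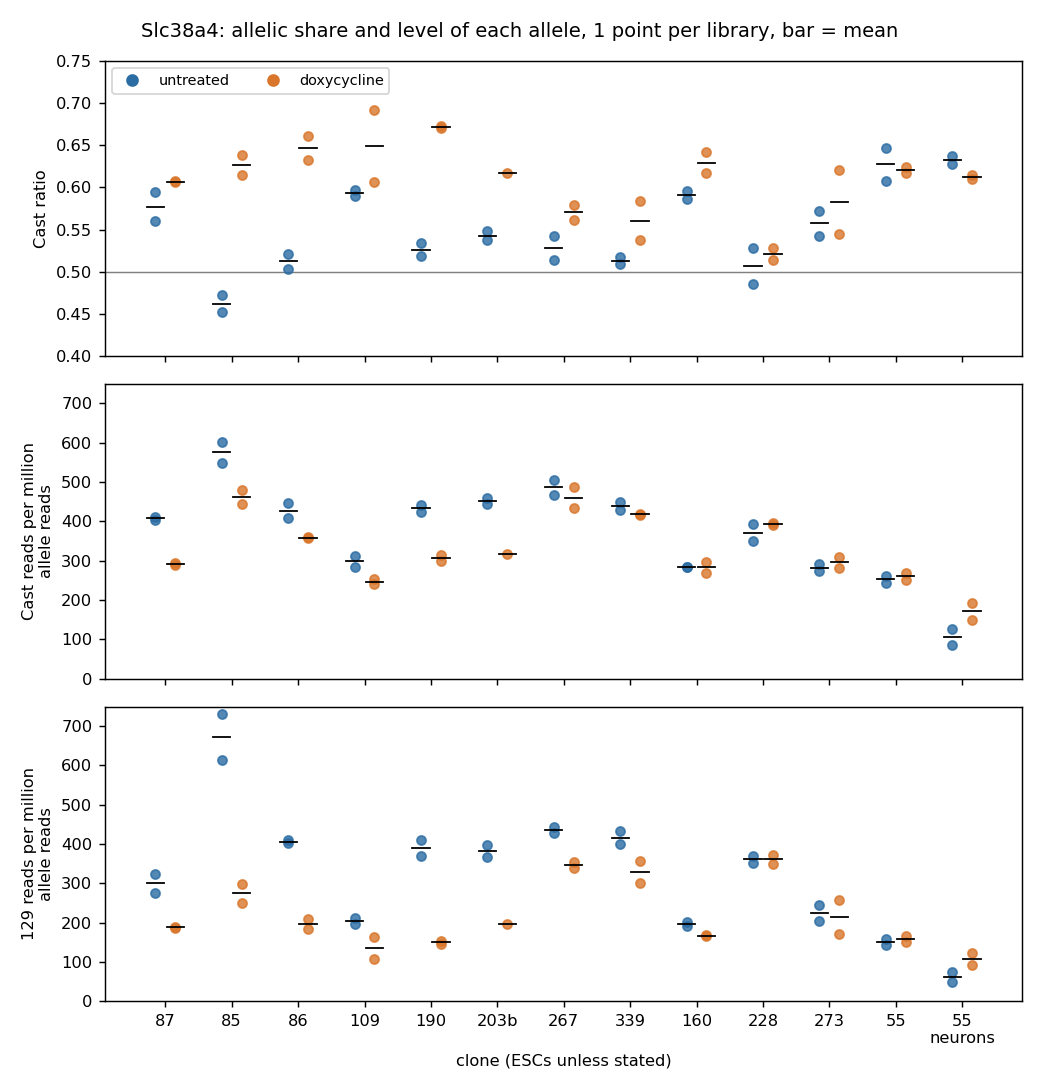
Slc38a4 by clone, 1 point per library with the mean as a bar, untreated in blue and doxycycline in orange. The panels give the Cast ratio and the Cast and 129 allele CPM. Clones 85, 86 and 190 show the widest gaps in ratio, with 129 reads at 0.409, 0.483 and 0.384 times the untreated level, and the dup12 clones at the right show small gaps.

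In gene levels, 38.6% of 4737 genes differed with doxycycline in edgeR's test on gene reads with TMM scaling, 18.7% upwards and 19.9% downwards. Libraries also differed in gene reads per allele read, which was high in more treated than untreated ESC libraries. The treated library of clone 203b had 3645880 gene reads to 991212 allele reads, against 4147345 to 1320959 in untreated replicate 2. The part of this in the level changes was not tested. Levels are given in CPM, gene reads scaled to the library total. Of 11 imprinted genes tested, 4 were called, 3 upwards and 1 downwards, a share near that of all genes. Mest rose by 0.40 ± 0.08 (log2, SE, adjusted p = 2.50e-04), from 99.3 ± 37.9 to 129 ± 53.0 CPM (SD, n = 24 and 23). Peg10 rose by 0.46 ± 0.14 (adjusted p = 0.00766), from 163 ± 78.5 to 213 ± 74.0. Slc38a4 fell by 0.35 on the log2 scale (SE 0.07, adjusted p = 1.18e-04), from 499 ± 170.1 to 381 ± 112. Untreated and treated libraries overlapped in all 3 genes.

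Kcnq1ot1 rose by 0.92 ± 0.28 (log2, SE, adjusted p = 0.00827). Untreated libraries held 93.8 to 719 CPM (median 201) and treated ones 80.6 to 2883 (median 381). The highest value is the single treated library of clone 203b, without which the change was 0.71 (adjusted p = 0.029). In clone 109 the level went from 357 and 228 to 1225 and 666, in clone 190 from 127 and 113 to 961 and 486, while in clone 87 it was 445 and 155 untreated and 80.6 and 206 treated. The change of its ratio did not pass the test, and 129 remained the main allele in the library with 2883 CPM (ratio 0.259). Without replicate 1, Mest (adjusted p = 0.0945) and Slc38a4 (0.0506) were no longer called, and without replicate 2 Kcnq1ot1 (0.337) and Peg10 (0.298). Kcnq1ot1 overlaps Kcnq1, and no strand is stated for the counts.

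Genes that set or keep imprints were described from a list of 17. In ESCs with doxycycline, 6 of 13 tested rose and 1 fell, beside 18.7% and 19.9% of all genes. The demethylases Tet2 (0.55, adjusted p = 7.98e-04) and Tet1 (0.43), the methyltransferase Dnmt3b (0.35), and Zfp445, Setdb1 and Trim28 (0.26, 0.19 and 0.17), which act at imprinted control regions or with KRAB zinc finger proteins, were higher, and Hells, a chromatin remodeller, fell by 0.19 on the log2 scale. Of the ESC markers, 5 of 8 rose and none fell, beside the same 18.7% and 19.9%. In allelic ratio, none of the 13 tested genes of the upkeep list passed the doxycycline test, which called 2.16% of all genes. Tet1 came nearest (0.16, edgeR, adjusted p = 0.0603).

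Neurons of clone 55 listed more imprinted genes than ESCs, in libraries with more reads. They listed 34 of the 38, 31 of them in all 4 libraries, and again no gene was monoallelic in the pooled reads (32 biallelic, 2 skewed). The biallelic share was 94.1%, beside 88.3% of 13285 autosomal genes. The libraries are labelled as neurons, and 7 of 8 neuron markers were listed in at least 1 of them (Stmn2 was not), against 3 in ESCs. Their sum was 97.4 to 915 CPM in neurons (median 139), overlapping with 61.6 to 177 over ESC libraries. Of the 2 neuron markers tested, Tubb3 rose by 1.23 on the log2 scale (edgeR, adjusted p = 0.0358), and Mapt did not pass the test (-0.28, adjusted p = 0.793). Glia and progenitor markers summed to 488 to 1696 CPM, against 222 to 692 in ESCs. All 8 ESC markers were still listed and all 8 fell, Pou5f1 from a median of 1998 to 843. Fibroblast markers summed to 146 to 644 CPM and endoderm markers to 42.7 to 120, against at most 34.4 and 11.1 in ESCs. Of the fibroblast markers only Thy1 was tested, and it was lower in neurons (log2 change -2.075, edgeR, adjusted p = 6.425e-04). No endoderm marker was tested. What part cells with these markers have in the neuron values was not tested.

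The growth regulators of the Igf2-H19 cluster appeared in neurons. H19 held 912 to 2675 CPM and ratios of 0.443, 0.469, 0.39 and 0.478 from 6249 to 31461 reads (untreated first). Igf2, the fetal growth factor read from the paternal copy in most tissues, held ratios of 0.595 and 0.831 untreated and 0.626 and 0.559 treated, from 130 to 331 reads. Both genes were therefore read from both alleles, with 1 Igf2 library above 0.7. Cdkn1c, the cell cycle inhibitor p57, lay at 0.473 to 0.583, and Grb10, paternal in neurons by background knowledge, at 0.527 to 0.585. Peg3 lay at 0.53 to 0.551 from 4371 to 10860 reads, nearer 0.5 than in most ESC clones. Ube3a lay at 0.352 to 0.439.

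Of the smaller genes of the Snrpn cluster, Ndn lay at 0.426 to 0.544, Mkrn3 at 0.448 to 0.567 and Peg12 at 0.487 to 0.633. Magel2 was listed in 3 libraries with 0.568 to 0.7 and up to 111 reads. Airn ranged from 0.483 to 0.719 beside Igf2r at 0.395 to 0.516, and no strand separates the 2. Sgce lay at 0.45 to 0.57, Usp29 at 0.423 to 0.688 in 3 libraries, and Nap1l5 at 0.48 in 1. Phlda2 (0.32 to 0.769), Ascl2 (0.419 to 0.605) and Commd1 (0.5 to 0.9) rest on at most 43 reads in a library.

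Neurons and ESCs of clone 55 were compared with 4 libraries each, treatment as a covariate. All 4 ESC libraries are labelled as sub-clone 38, whereas the neurons are from sub-clones 20 and 38, and the sub-clone was not a term of the fit. Sub-clone and cell type therefore cannot be fully told apart in the fit. In the allelic ratio, 358 of 6777 genes (5.28%, 2.77% higher and 2.51% lower in neurons) and 1 of 15 imprinted genes were called. This was Plagl1, at 0.0296 to 0.0621 in ESCs and 0.32 to 0.348 in neurons, a change of 3.31 ± 0.23 (log2, SE, edgeR adjusted p = 3.43e-05) that held without any one library (3.05 to 3.59). The neuron libraries of sub-clone 38 alone gave 0.322 and 0.348, above all 4 ESC libraries, which are of that sub-clone. The level of Plagl1 was 22.8 to 57.5 CPM in ESCs and 41.7 to 169 in neurons, with overlap (edgeR, adjusted p = 0.0824). Slc38a4 did not pass the test, with a change of -0.01 (95% interval -0.18 to 0.17) and neuron ratios of 0.61 to 0.637.

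In level, 34.4% of 6748 genes were called (16.5% higher and 17.8% lower in neurons), and 8 of 15 imprinted genes, 6 upwards and 2 downwards. Peg10 rose most, by 3.21 ± 0.36 (log2, SE, edgeR adjusted p = 2.88e-04), from 88.3 to 348 CPM in ESCs to 1704 to 2996 in neurons. Mest rose by 1.95 ± 0.20 (adjusted p = 2.01e-04), from 76.3 to 97.9 up to 231 to 437. Inpp5f (1.41), Ube3a (1.11) and Zdbf2 (0.95) rose as well, and Mcts2 fell by 0.83 on the log2 scale. Among 8 fits that each left out 1 library, the call of Zdbf2 was lost in 2 (adjusted p = 0.0615 and 0.0773), that of Copg2 (0.50, adjusted p = 0.0335) in 5 and that of Cd81 (-0.44, adjusted p = 0.0435) in 6. Peg10 and Mest thus rose with ratios at 0.532 to 0.57 and 0.398 to 0.51. Of the upkeep list, 4 of 15 genes tested rose and 2 fell, beside 16.5% and 17.8% of all genes. Dnmt3a (2.26), Dnmt3b (1.29), Dnmt3l (1.06) and Smchd1 (0.87) rose, and Zfp57 and Uhrf1, a partner of Dnmt1, fell by 1.67 and 0.66. The other genes tested, Dnmt1 and Trim28 among them, did not pass the test.

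**Figure D5:**
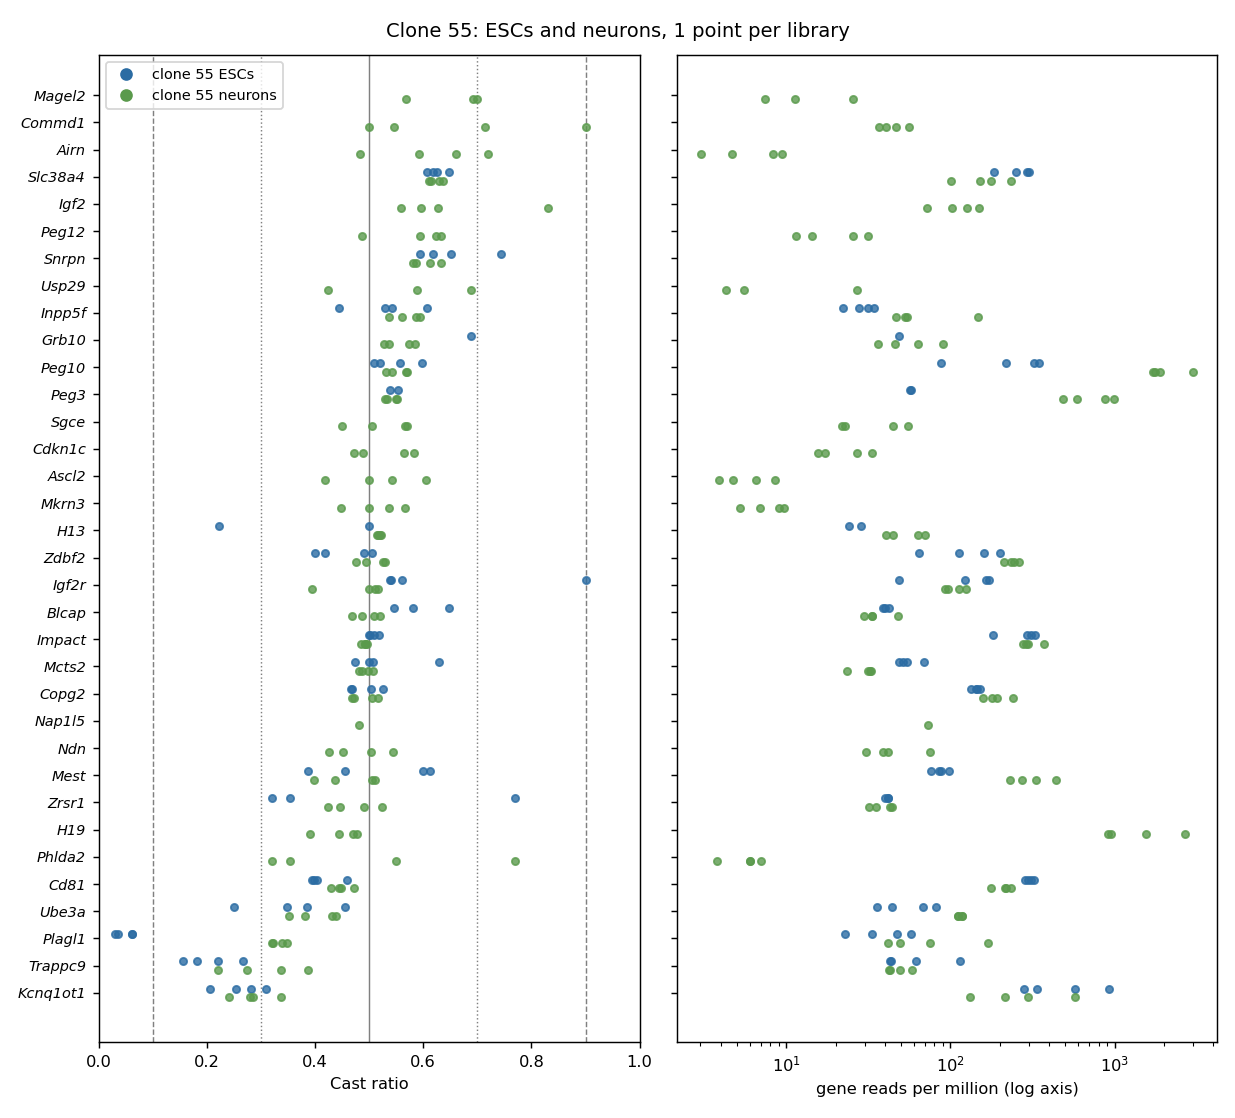
Clone 55, 1 point per library, ESCs in blue and neurons in green, for the 34 imprinted genes listed in neurons. Left, Cast ratio with the class limits as dotted and dashed lines. Right, gene CPM on a log axis (Snrpn left out). Most neuron ratios lie between 0.3 and 0.7, Plagl1 moves from 0.0296 to 0.0621 up to 0.32 to 0.348, and Peg10 lies at 1704 to 2996 CPM in neurons.

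Doxycycline in neurons was tested with 2 libraries a group and the sub-clone as a block. The allelic ratio changed in 139 of 11292 genes (1.23%, 1.11% higher and 0.124% lower) and in 1 of 31 imprinted genes. Trappc9 rose from 0.22 and 0.273 to 0.387 and 0.336, a change of 0.76 ± 0.17 (log2, SE, edgeR adjusted p = 0.0188), with the same exon given in all 4 libraries. DESeq2 (adjusted p = 1.00) and the fit without the block (1.00) did not call it. Slc38a4 gave 0.628 and 0.637 untreated and 0.615 and 0.61 treated, a change of -0.12 (95% interval -0.34 to 0.09), and Igf2 a change of -0.77 (adjusted p = 0.78).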

How the data were processed

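RNA was sequenced from 60 libraries, of which 52 were assigned to a clone, cell type and treatment from their labels. For each library the authors deposited raw counts per gene, namely Cast and 129 reads over exonic polymorphisms, their sum and all HTSeq gene reads, and a fraction, Cast over allele-specific reads. Per the submitters' notes and methods, single reads were aligned with TopHat2 2.0.6 to both strain genomes (mm10) and alleles were counted with SAMtools after a minimum of reads. A read over several polymorphisms can count more than once, and HTSeq 0.6.1 drops reads shared by overlapping genes. The imprinted genes and lists were chosen with earlier results of these data known.

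Counts were tested with edgeR 4.0.16 (R 4.3.3), with 2 columns per library for allelic terms and TMM scaling for levels, on genes listed in every library of a fit and with Benjamini-Hochberg adjustment over all of them at 0.05. For doxycycline in ESCs, limma 3.58.1 was fitted to log2 ratios with a pseudocount of 0.5 for genes listed in both treatments of at least 3 clones. For clone differences with missing libraries, limma only moderated the variances of an F test between clones on such ratios. That test took genes listed in untreated libraries of at least 3 clones. DESeq2 1.42.0 was an alternative. The fits were also run on simulated counts with a fixed spread, which was not matched to the spread between these replicates. CPM scale gene reads to the listed genes of a library. Clone 68 has no untreated library and enters no fit. The study calls the ESC replicates biological, and the labels do not name separate cultures, so p-values measure the spread between these libraries. Replicate pairs differed beyond counting noise (chi-square per degree of freedom 2.51 to 60.1, 25 pairs). In neurons the replicate number is the sub-clone and was kept as a block. Values were given for genes one-sided in at least 1 clone or called in any fit, and the others more briefly.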

Additional observations from a re-analysis of the deposited data

Results flagged for a closer look

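The change of the Slc38a4 Cast ratio with doxycycline differed between clones in the test of that difference (edgeR, adjusted p = 6.17e-04). The lowest difference of treated and untreated means was -0.0061 in clone 55 and the highest 0.165 in clone 85, and 11 of 12 clones had a higher mean with doxycycline. The call was made with DESeq2 and with the higher read minimum as well.

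Igf2 had a signal in libraries outside every comparison. The labels of 8 libraries of clone 292 conflict on the cell type, and 4 of them list Igf2. Its Cast ratio there was 0.105, 0.0898, 0.0813 and 0.0803, whereas the 4 neuron libraries of clone 55 lay between 0.559 and 0.831. The difference was not tested, since the 4 libraries have no group. In the same libraries H19 lay at 0.603 to 0.626.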

How the results depend on the processing

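The fits were recomputed with other tools, scalings, read minimums or pseudocounts. Clones were left out in turn for clone differences and the edgeR allelic shift only, and replicate numbers for the ESC doxycycline fits except the clone by treatment term, which was recomputed with DESeq2 and a read minimum only. Single libraries were left out for clone differences and for neurons against ESCs, and 1 library for ESC levels. For single named genes, 274 of 318 recomputed values kept their direction and their side of the threshold, 33 lost the call, 9 gained it, 1 reversed and 1 with no test moved (the median of Trappc9 by exon). The number of all genes called was less stable. For clone differences it went from 720 to 470 without clone 87. For the allelic shift with doxycycline in ESCs it went from 103 to 55, 53 and 62 without clones 190, 85 and 86 and to 3 to 16 without 1 replicate number, where 0 to 1 imprinted genes were called. The limma fit went from 31 genes to 0 to 1 without a replicate number, with 0 imprinted genes called, and to 17 with the replicate block. The gene levels gave 503 to 801 calls without a replicate number and 1553 without the treated library of clone 203b, in place of 1829, with 2 to 4 imprinted genes, and the change of Mcts2 reversed from 0.11 to -0.047 on the log2 scale without replicate 1. Leaving out 1 library of clone 55 gave 203 to 349 calls in the allelic ratio of neurons (1 to 2 imprinted) and 1282 to 2552 in their level (5 to 9 imprinted). Doxycycline in neurons gave 25 calls in DESeq2 and 1 with no replicate block, and 0 imprinted genes in both, against 707 genes at an unadjusted p below 0.05. With class limits of 0.8 and 0.2, 19 pairs of gene and clone were monoallelic and 30 skewed. The cause of these changes was not tested, and fits without a replicate number also hold fewer libraries.

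In ESCs the replicate numbers did not pair the libraries (correlation of deviations over 11 clones from -0.0483 to 0.0495, mean -0.00055, for ratios and from -0.56 to 0.665, mean 0.103, for levels). With the replicate block the change of Slc38a4 was 0.39 (adjusted p = 3.35e-04). Clone differences could not be fitted without a whole replicate number, which leaves no residual degrees of freedom. Leaving out single libraries there, splitting Trappc9 by exon and leaving out the treated library of clone 203b were chosen after seeing the data. Genes with few reads limit the ratios, and a missing gene is not a gene without expression.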

Other observations

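The 8 libraries of clone 292 stand in no group. Plagl1 had ratios of 0.394 to 0.452 in the 4 of them that list Igf2 and 0.194 to 0.274 in the other 4. Kcnq1ot1 lay at 0.21 to 0.303 in all 8, and Slc38a4 at 0.594 to 0.621. Peg3 was at 0.527 to 0.547 in the libraries that list Igf2 and at 0.586 to 0.754 in the others. Zim1, a zinc finger gene of the Peg3 cluster, was listed in 1 library with a ratio of 0.8 from 10 reads.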
